A study of Homo sapiens with 18 samples.

Results

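The genes described here are the 10 genes MMP1, MMP2, MMP14, TIMP1, TIMP2, TIMP3, TFPI2, PLAU, PLAT and PLAUR, which encode matrix proteases, their inhibitors and the urokinase system. They were chosen by symbol, and all 10 were found among the 58735 gene rows of the RBCK1 and ANKRD35 tables and the 29928 symbols of the MITD1 table. RNA-seq was made from 18 libraries of 786-O cells, an established human clear cell renal carcinoma line that lacks a functional VHL tumour suppressor. There were 6 groups of 3 libraries: shRBCK1 (RBCK1 knocked down) with shcontrol, siANKRD35 (ANKRD35 knocked down) with sicontrol_for_siANKRD35, and siMITD1 (MITD1 knocked down) with sicontrol_for_siMITD1. RBCK1 encodes the HOIL-1 subunit of the linear ubiquitin ligase complex, ANKRD35 an ankyrin repeat protein and MITD1 a protein that acts with ESCRT-III in cell abscission. All groups grew in RPMI-1640 with serum, and no drug treatment is named for any of them. Neither the time after knockdown nor the number of hairpins or siRNA sequences is named, and the columns of siANKRD35 are headed as shRNA while the titles say si, so the reagent is uncertain there. Each pair of groups sits in a table of its own with its own scaling, and tests stay inside a table.

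Cells remodel their surroundings with secreted and membrane-bound metalloproteinases, which are made as inactive proenzymes and are held in check by the tissue inhibitors of metalloproteinases (TIMPs). MMP14 on the cell surface activates proMMP2, with a TIMP2 molecule as the bridge between them. The urokinase and tissue-type activators turn plasminogen into plasmin, which digests fibrin and can activate several proMMPs, and the receptor PLAUR holds urokinase at the cell surface. In clear cell renal carcinoma this system has been studied mainly for its part in invasion.

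The values are FPKM, fragments counted per unit of gene length and of library size, so levels of different genes can be compared within a library. Changes are differences of mean log2(FPKM + 1), knockdown minus control. The added 1 shrinks the change of weakly expressed genes. Changes were tested with limma, with Benjamini-Hochberg adjustment over all genes of a table. Values after ± are SD with n = 3 libraries. A gene was tested if 3 or more of the 6 libraries of its table reached 1 FPKM, and it was called at an adjusted p under 0.05. The labels do not tell whether the 3 libraries of a group stem from different cultures, and the p-values speak of the spread among these libraries alone, and that spread may be technical. In bulk RNA, fewer cells with a transcript and less RNA per cell cannot be told apart.

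Each targeted gene was lower in its knockdown libraries than in their own controls. RBCK1 measured 30.8, 32 and 32.9 FPKM in shRBCK1 and 487, 492 and 462 FPKM in shcontrol, MITD1 measured 2.43, 2.66 and 3.03 FPKM in siMITD1 and 7.16, 7.42 and 7.83 FPKM in sicontrol_for_siMITD1, and ANKRD35 measured 0, 0 and 0.0332 FPKM in siANKRD35 and 753, 687 and 742 FPKM in sicontrol_for_siANKRD35. The control groups of the other tables averaged 70.8 and 65.5 FPKM of RBCK1, and 0 and 0.0064 FPKM of ANKRD35. ANKRD35 in siANKRD35 was thus as low as in those other controls, and RBCK1 in shcontrol and ANKRD35 in sicontrol_for_siANKRD35 stood far above them, across separately scaled tables. How much of either contrast lies in a high control was not tested. RBCK1 was itself called higher in siMITD1 (log2 change 0.52, limma adjusted p = 1.19e-06). It averaged 94.5 ± 2.43 FPKM there and 65.5 ± 0.96 FPKM in sicontrol_for_siMITD1. In the main test RBCK1 was not called in siANKRD35, and MITD1 was not called in shRBCK1 or siANKRD35. Whole reads recovered from the values numbered 16346478 to 18648246 per RBCK1 library, 17502646 to 19034974 per ANKRD35 library and 12703947 to 13888443 per MITD1 library, where the last range covers only the genes whose values came out whole.

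Like those of the siMITD1 pair, the 6 libraries of the ANKRD35 table, knockdown and control alike, stood apart from the other 12 in some genes. Of 29848 symbols found in all tables, 11 genes were at 10 FPKM or more in each of the other 12 libraries and under 0.1 FPKM in each of these 6, MMP2 among them, and 13 genes showed the opposite. The same counts were 33 and 1 for the siMITD1 pair, and 0 and 0 for the shRBCK1 pair. The tubule and renal carcinoma markers PAX8 (17.5 to 48.3 FPKM) and EPAS1 (17.7 to 63.2 FPKM) were present in all 18 libraries. CDH6 was at 0 in the ANKRD35 table and at 13.3 to 28.8 FPKM elsewhere, and CA9 stayed at or under 0.662 FPKM throughout. MME stood at 0.116 to 0.514 FPKM in the ANKRD35 table and at 2.05 to 2.95 FPKM elsewhere. LHX1 stood at 8.46 to 12.2 FPKM in the RBCK1 table. It was at 0.488 to 1.6 FPKM in the ANKRD35 table and at 0.13 to 0.388 FPKM in the MITD1 table. Of 9 fibroblast markers, THY1 stood at 34.1 to 44.1 FPKM in the ANKRD35 table and at or under 0.294 FPKM elsewhere, while LUM and PDPN were at 0 there, and their summed level was 35.2 to 44.5 FPKM in siANKRD35 and 34.9 to 37.9 FPKM in sicontrol_for_siANKRD35. The 5 endothelial markers found in all tables, which leave out PECAM1 (at or under 0.179 FPKM in the RBCK1 and ANKRD35 tables), summed to 27.3 to 51.5 FPKM in siANKRD35 and 20.3 to 27.3 FPKM in sicontrol_for_siANKRD35, nearly all of it EGFL7, while VWF and CDH5 stayed at or under 0.108 FPKM in all libraries. In siMITD1 the endothelial sum was 5.22 to 6.61 FPKM and that of 6 blood cell markers 1.65 to 2.27 FPKM, against 9.62 to 10.3 and 5.33 to 5.94 FPKM in sicontrol_for_siMITD1. Most of the blood cell sum was LAPTM5, at 1.31 ± 0.155 FPKM in siMITD1 and 4.31 ± 0.48 FPKM in sicontrol_for_siMITD1. In shRBCK1 the blood cell sum was the higher one, 3.77 to 5.12 FPKM against 2.73 to 3.32 FPKM in shcontrol. LAPTM5 again made up most of it (3.26 ± 0.517 and 2.19 ± 0.273 FPKM). The 12 renal markers summed to 756 to 783 FPKM in shRBCK1 and 971 to 989 FPKM in shcontrol, and to 1390 to 1697 FPKM in siANKRD35 and 1180 to 1217 FPKM in sicontrol_for_siANKRD35. VIM, KRT8 and KRT18 made up most of these sums, and single markers went both ways. Of 11 tested in shRBCK1, 5 were called higher and 5 lower. Of 9 tested in siANKRD35, 2 were called higher and 5 lower, and the shares over all genes are given below. Of 4 markers of an embryonic kidney line, INA stood at 19.4 to 24.7 FPKM in the ANKRD35 libraries and at or under 0.02 FPKM elsewhere. NEFL and GATA3 went the other way. NEFL stood at 2.35 to 5.06 FPKM in the ANKRD35 libraries and at 31.8 to 59.4 FPKM elsewhere, and GATA3 at or under 0.102 FPKM and at 1.46 to 2.6 FPKM. NEFM stayed at or under 0.145 FPKM in all libraries. The part of these differences in the results was not tested. The blood cell markers PTPRC and CD3E were at or under 0.0158 FPKM in every library. Whether the libraries of the 3 tables came from 1 stock of the line was not tested.

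**Figure D1:**
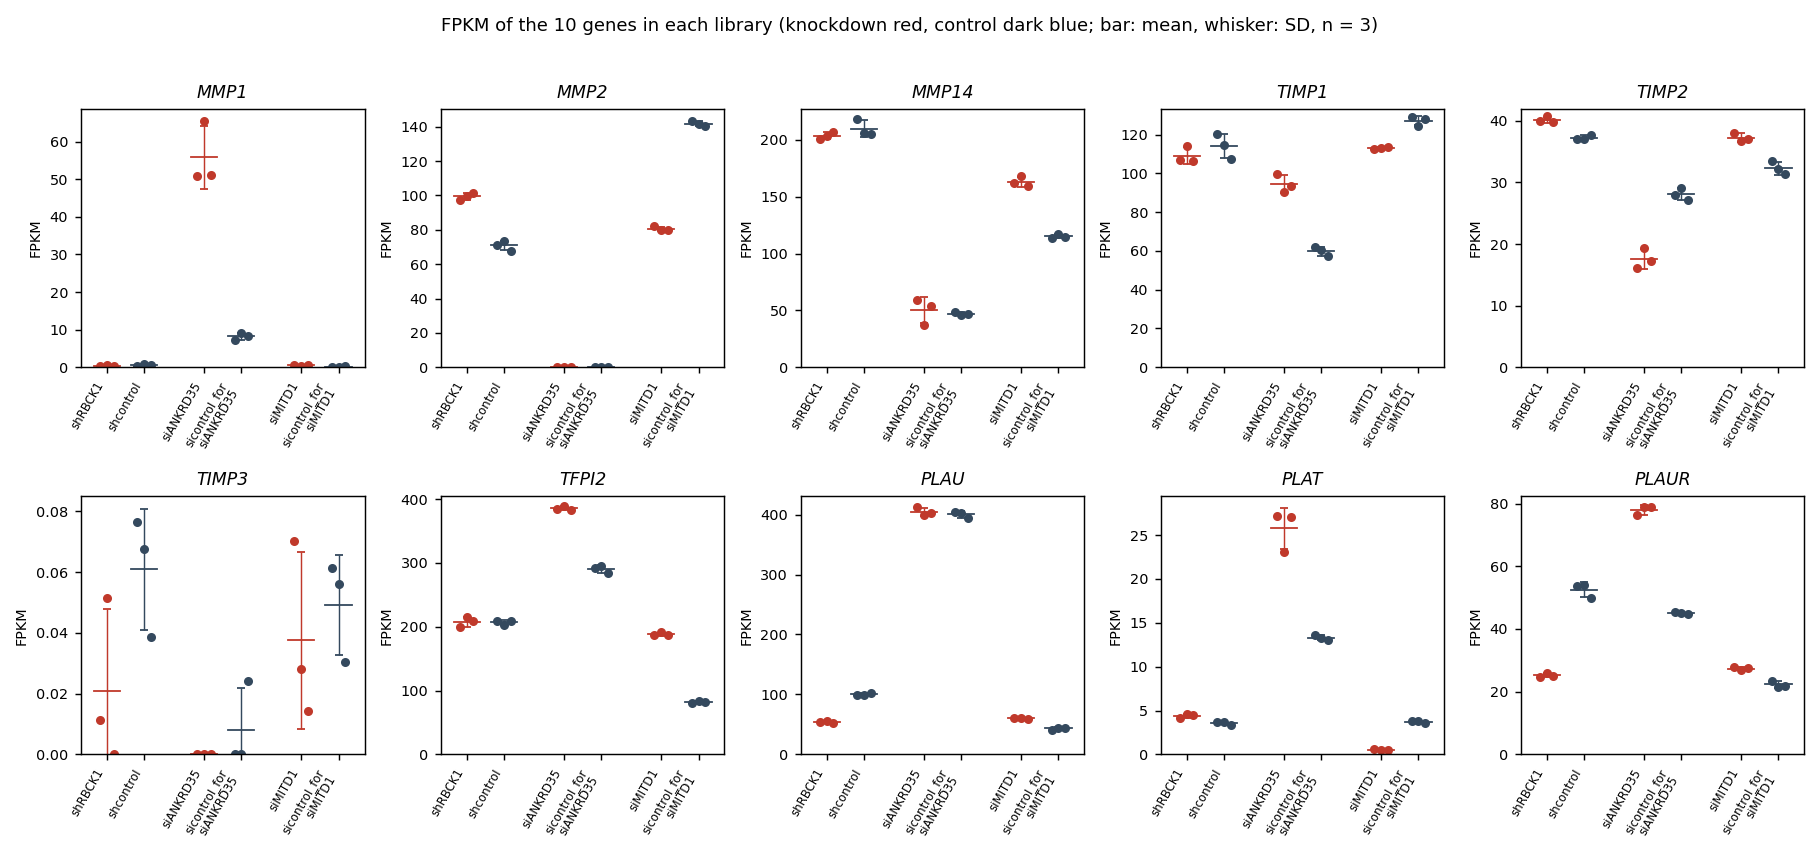
FPKM of each of the 10 genes (vertical axes, linear, from 0) in each library, with the knockdown group to the left of its control in each pair, a bar for the mean and a whisker for the SD of 3 libraries. MMP1 lies between 51 and 65.5 FPKM in siANKRD35 and under 10 FPKM in every other group, MMP2 is at 0 in both groups of the ANKRD35 table, and TIMP3 stays under 0.1 FPKM in all libraries.

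MMP1, the interstitial collagenase that cleaves fibrillar collagens, was the member with the largest change in siANKRD35. The gene (ENSG00000196611) occupies positions 102789920 to 102798160 of chromosome 11 (minus strand). Coordinates of all genes are in GRCh38. It measured 51, 65.5 and 51 FPKM in siANKRD35, against 7.26, 9.01 and 8.32 FPKM in sicontrol_for_siANKRD35. Each knockdown library lay far above each control library, with 5693 reads over the 3 knockdown libraries and 899 over the controls. The means were 55.8 ± 8.35 and 8.19 ± 0.884 FPKM, a 6.81-fold difference (log2 change 2.62 with SE 0.124, limma adjusted p = 0.000168).

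In the other tables MMP1 was close to silent and was not tested. It stood at 0.424, 0.48 and 0.282 FPKM in the shRBCK1 libraries, against 0.447, 0.822 and 0.72 FPKM in shcontrol. These groups overlapped, and an exact permutation test of their means, two-sided, gave p = 0.2, where 3 against 3 cannot go below 0.1. It measured 0.624, 0.429 and 0.636 FPKM in siMITD1, against 0.107, 0.164 and 0.321 FPKM in sicontrol_for_siMITD1, from 51 and 17 reads. The siMITD1 libraries all lay above their controls, at the smallest exact permutation p of 0.1. With no filter on low values limma called this difference (log2 change 0.39, adjusted p = 0.0148).

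MMP2, the gelatinase A that digests basement membrane collagen, moved in opposite directions in shRBCK1 and siMITD1. The gene (ENSG00000087245) lies on chromosome 16 at 55389700 to 55506691, on the plus strand. It stood at 97.3, 99.5 and 101 FPKM in the shRBCK1 libraries, against 71.4, 73.5 and 67.9 FPKM in shcontrol. All shRBCK1 libraries were above all shcontrol libraries (99.4 ± 2.01 and 70.9 ± 2.83 FPKM, log2 change 0.48 with SE 0.037, limma adjusted p = 5.38e-05). It measured 82.1, 79.8 and 79.8 FPKM in siMITD1, against 143, 142 and 140.2 FPKM in sicontrol_for_siMITD1. Here every knockdown library lay below every control library, and the level fell by 0.81 on the log2 scale (80.6 ± 1.3 and 142 ± 1.5 FPKM, SE 0.024, limma adjusted p = 6.73e-08). These contrasts lie in separately scaled tables and the difference between them was not tested.

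No read of MMP2 was counted in the ANKRD35 table. With 0 reads in 3 libraries, a count of 3 over the group limits the mean level to 0.0117 FPKM in siANKRD35 and to 0.011 FPKM in sicontrol_for_siANKRD35, for counting error only. Without molecular identifiers, reads copied by PCR are no independent molecules, and limits of this kind leave that out.

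MMP14, the membrane-type protease that activates proMMP2, was the most abundant of the 3 proteases in every group except siANKRD35, where its libraries overlapped those of MMP1, and sicontrol_for_siMITD1, where MMP2 was higher. The gene (ENSG00000157227) lies on chromosome 14 at 22836557 to 22849027, on the plus strand. The stretch upstream of its RefSeq start, from position −250 to −29, is shown because it holds no exon annotated in GENCODE 29. The letters are from RefSeq (GRCh38.p14, chr14:22836335-22836556, plus strand), with capitals for GGGCGG, the core of GC boxes bound by SP1-type factors, on either strand.
MMP14: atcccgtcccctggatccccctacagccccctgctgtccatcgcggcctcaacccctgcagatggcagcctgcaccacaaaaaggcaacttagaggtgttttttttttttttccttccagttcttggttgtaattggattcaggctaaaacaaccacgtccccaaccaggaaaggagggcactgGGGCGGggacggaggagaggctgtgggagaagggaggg

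In siMITD1, MMP14 measured 162, 168 and 159 FPKM, against 113, 117 and 115 FPKM in sicontrol_for_siMITD1. It rose in all 3 knockdown libraries (163 ± 4.59 and 115 ± 1.78 FPKM, log2 change 0.50 with SE 0.028, limma adjusted p = 1.36e-06), in the same comparison in which MMP2, the proenzyme it activates, fell. In shRBCK1 it measured 201, 203 and 207 FPKM, against 218, 206 and 206 FPKM in shcontrol, and the groups overlapped (log2 change −0.04 with SE 0.035, limma adjusted p = 0.341). In siANKRD35 it measured 59.2, 37.3 and 53.5 FPKM, against 48.2, 45.7 and 47.1 FPKM in sicontrol_for_siANKRD35. The knockdown libraries fell on both sides of the controls (50 ± 11.4 and 47 ± 1.25 FPKM, log2 change 0.06 with SE 0.162, limma adjusted p = 0.793). Without siANKRD35 replicate 2 the change was 0.26 and was called (limma adjusted p = 0.0115), and under quantile normalization it was −0.18, under voom −0.02, and not called.

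TIMP1, a secreted inhibitor of most MMPs with weak action on membrane-type ones, was higher in siANKRD35 and slightly lower in siMITD1. The gene (ENSG00000102265) lies on chromosome X at 47582313 to 47586789, on the plus strand, and overlaps the opposite-strand gene SYN1, which did not exceed 0.0619 FPKM. It measured 99.96, 90.6 and 93.4 FPKM in siANKRD35, against 61.8, 60.7 and 57.3 FPKM in sicontrol_for_siANKRD35. The groups stood apart (94.7 ± 4.79 and 59.9 ± 2.35 FPKM, log2 change 0.65 with SE 0.072, limma adjusted p = 0.00163). With a correction for gene length and GC content the change was 0.35, and under quantile normalization 0.42. It measured 113, 113 and 114 FPKM in siMITD1, against 129, 125 and 128 FPKM in sicontrol_for_siMITD1. TIMP1 fell there by 0.17 (SE 0.024, limma adjusted p = 0.000332), a call that the same correction ended (−0.03, adjusted p = 0.379). In shRBCK1 it measured 107, 114 and 107 FPKM, against 120.3, 115 and 108 FPKM in shcontrol, and the groups overlapped (log2 change −0.06 with SE 0.048, limma adjusted p = 0.319).

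TIMP2, the inhibitor that also bridges proMMP2 to MMP14, fell in siANKRD35 and rose by small amounts in the other knockdowns. The gene (ENSG00000035862) lies on chromosome 17 at 78852977 to 78925387, on the minus strand. It measured 16.2, 19.4 and 17.2 FPKM in siANKRD35, against 28, 29.1 and 27.2 FPKM in sicontrol_for_siANKRD35. Every knockdown library was below every control library (17.6 ± 1.62 and 28.1 ± 0.925 FPKM, log2 change −0.65 with SE 0.084, limma adjusted p = 0.00236). It measured 38, 36.6 and 37.1 FPKM in siMITD1, against 33.4, 32.2 and 31.3 FPKM in sicontrol_for_siMITD1 (log2 change 0.20 with SE 0.034, limma adjusted p = 0.000872). In shRBCK1 it measured 40, 40.7 and 39.8 FPKM, against 37, 37.1 and 37.7 FPKM in shcontrol. The groups did not overlap but the change was small (0.11, SE 0.029, limma adjusted p = 0.0186). The call was lost without shRBCK1 replicate 2 (adjusted p = 0.0516) and without shcontrol replicate 1 (0.058) or 2 (0.0661).

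TIMP3, the inhibitor that stays bound to the matrix and also blocks ADAM17, was almost unread. The gene (ENSG00000100234) lies on chromosome 22 at 32801701 to 32863043, on the plus strand, and overlaps the opposite-strand gene SYN3, which did not exceed 0.0539 FPKM. Its highest value was 0.0764 FPKM, and it had 5 reads in shRBCK1 and 14 in shcontrol, 0 in siANKRD35 and 2 in sicontrol_for_siANKRD35, and 8 in siMITD1 and 10 in sicontrol_for_siMITD1. It did not reach the filter in any comparison, and exact permutation tests gave p = 0.2, 1 and 0.6 in that order of tables, two-sided. With no filter limma did not call it either (adjusted p = 0.314, 0.756 and 0.696). Its upstream stretch, free of annotated exons, is shown because it held 5 matches to GGGCGG, the most among the member windows searched, while the gene was almost unread (RefSeq, GRCh38.p14, chr22:32801455-32801700, plus strand, capitals as above).
TIMP3: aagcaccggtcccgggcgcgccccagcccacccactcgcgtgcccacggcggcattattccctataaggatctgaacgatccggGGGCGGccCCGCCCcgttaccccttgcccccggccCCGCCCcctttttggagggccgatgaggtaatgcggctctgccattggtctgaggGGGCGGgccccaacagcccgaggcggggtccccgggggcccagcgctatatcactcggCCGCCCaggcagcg

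TFPI2, a Kunitz-type inhibitor of plasmin and related serine proteases that is deposited in the matrix, rose most in siMITD1. The gene (ENSG00000105825) lies on chromosome 7 at 93885396 to 93890991, on the minus strand. It measured 187, 191 and 187 FPKM in siMITD1, against 80.7, 83.1 and 81.4 FPKM in sicontrol_for_siMITD1. Each knockdown library held more than each control by a wide margin (189 ± 2.35 and 81.7 ± 1.26 FPKM, 2.31-fold, log2 change 1.20 with SE 0.024, limma adjusted p = 1.01e-08). It measured 385, 389.5 and 384 FPKM in siANKRD35, against 293, 295 and 284 FPKM in sicontrol_for_siANKRD35 (log2 change 0.41 with SE 0.060, limma adjusted p = 0.00347). That call was lost under quantile normalization (0.13, adjusted p = 0.185) and with the length and GC correction (0.18, adjusted p = 0.0525). In shRBCK1 it measured 199.6, 215 and 209 FPKM, against 209, 203 and 209 FPKM in shcontrol. The shRBCK1 and shcontrol libraries overlapped (log2 change 0.01 with SE 0.036, limma adjusted p = 0.895), while quantile normalization gave 0.14 (adjusted p = 0.0031).

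PLAT, the tissue-type plasminogen activator, was lower than PLAU in every library and changed in all 3 comparisons. The gene (ENSG00000104368) lies on chromosome 8 at 42175233 to 42207724, on the minus strand. It measured 27.1, 23.1 and 27 FPKM in siANKRD35, against 13.6, 13.2 and 13.1 FPKM in sicontrol_for_siANKRD35 (25.8 ± 2.31 and 13.3 ± 0.26 FPKM, log2 change 0.90 with SE 0.084, limma adjusted p = 0.00106). It stood at 4.18, 4.6 and 4.47 FPKM in the shRBCK1 libraries, against 3.75, 3.73 and 3.39 FPKM in shcontrol (log2 change 0.23 with SE 0.057, limma adjusted p = 0.0127). In these comparisons the knockdown libraries were the higher ones without overlap. It measured 0.625, 0.531 and 0.488 FPKM in siMITD1, against 3.75, 3.85 and 3.62 FPKM in sicontrol_for_siMITD1. PLAT fell there, to 167 reads over the siMITD1 libraries against 1088 over the controls (log2 change −1.62 with SE 0.066, limma adjusted p = 2.77e-07). It passed the filter there through its control libraries alone, so it had to differ, and with a pseudocount of 0.1 the change was −2.77.

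PLAU, which encodes urokinase, and PLAUR, which encodes its receptor, fell together in shRBCK1. PLAU (ENSG00000122861) lies on chromosome 10 at 73909177 to 73917497, on the plus strand, and PLAUR (ENSG00000011422) on chromosome 19 at 43646095 to 43670547, on the minus strand. PLAU stood at 53.8, 55.3 and 53 FPKM in the shRBCK1 libraries, against 99.7, 98.8 and 102 FPKM in shcontrol. PLAUR stood at 24.7, 26 and 25.1 FPKM in the shRBCK1 libraries, against 53.7, 54.1 and 49.8 FPKM in shcontrol. Neither gene's groups came near each other: the means were 54 ± 1.17 and 100.2 ± 1.71 FPKM for PLAU (log2 change −0.88 with SE 0.031, limma adjusted p = 7.48e-07) and 25.3 ± 0.691 and 52.5 ± 2.41 FPKM for PLAUR (log2 change −1.03 with SE 0.042, limma adjusted p = 1.78e-06).

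In siMITD1 both rose by smaller amounts. PLAU measured 61.4, 61.3 and 58.9 FPKM in siMITD1, against 41.1, 44.8 and 44.6 FPKM in sicontrol_for_siMITD1 (log2 change 0.47 with SE 0.039, limma adjusted p = 1.37e-05). PLAUR measured 27.8, 26.9 and 27.4 FPKM in siMITD1, against 23.6, 21.5 and 21.8 FPKM in sicontrol_for_siMITD1 (log2 change 0.28 with SE 0.040, limma adjusted p = 0.000305). All siMITD1 libraries lay above all controls for both genes.

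In siANKRD35 the receptor rose while urokinase did not pass the test. PLAUR measured 76.2, 78.9 and 78.8 FPKM in siANKRD35, against 45.4, 45.1 and 44.9 FPKM in sicontrol_for_siANKRD35. The 2 groups of PLAUR stood apart (78 ± 1.51 and 45.1 ± 0.24 FPKM, log2 change 0.78 with SE 0.061, limma adjusted p = 0.000674). PLAU measured 412, 399 and 402 FPKM in siANKRD35, against 405, 402 and 394 FPKM in sicontrol_for_siANKRD35, and these overlapped (log2 change 0.01 with SE 0.060, limma adjusted p = 0.882). Under quantile normalization PLAU turned to −0.36 and was called (adjusted p = 0.00628), and with the length and GC correction it was at −0.14. The PLAU to PLAUR ratio of FPKM was 5.19 ± 0.194 in siANKRD35 and 8.87 ± 0.0847 in sicontrol_for_siANKRD35.

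Short stretches upstream of PLAU, PLAUR and TFPI2 are shown because PLAU and PLAUR moved the same way in shRBCK1 and all 3 genes rose in siMITD1. They are limited to 30 bases since these windows overlap exons annotated in GENCODE 29. The letters are from RefSeq (GRCh38.p14): PLAU at chr10:73911075-73911104, plus strand, PLAUR at chr19:43670337-43670366, minus strand, and TFPI2 at chr7:93890822-93890851, minus strand. Capitals mark TGANTCA, a looser pattern than the AP-1 consensus, which has G or C in the middle as in PLAUR and not A as in TFPI2, or GGGCGG, and the first bases lie at positions −57, −197 and −98 from the start in that order.
PLAU: agggagGGGCGGcgccgGGGCGGgccctga
PLAUR: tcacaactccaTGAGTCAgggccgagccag
TFPI2: gtccccgtgcaTGAATCAgccacccctcag

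Promoter sequence was at hand for 6 of the 10 genes, with 2 start sites for PLAU. In the 250 bases before each start, TGANTCA was found on either strand in PLAUR and TFPI2 and in neither PLAU window, MMP14, TIMP1 or TIMP3. Of 35116 promoters of the same length, 6.57% held TGANTCA and 42.6% held GGGCGG. The GC-box core GGGCGG had 3 matches before the downstream PLAU start, 2 each in TFPI2 and TIMP1, 1 in MMP14 and 0 in PLAUR and before the upstream PLAU start. TATAAA, held by 10.7% of promoters, and CCGGAAG, an ETS-type core held by 8.52%, had no match in any of these windows. TGANTCA and the other motifs shared no base in the windows shown. A match is only a run of letters, and no match concerns these windows alone.

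**Figure D2:**
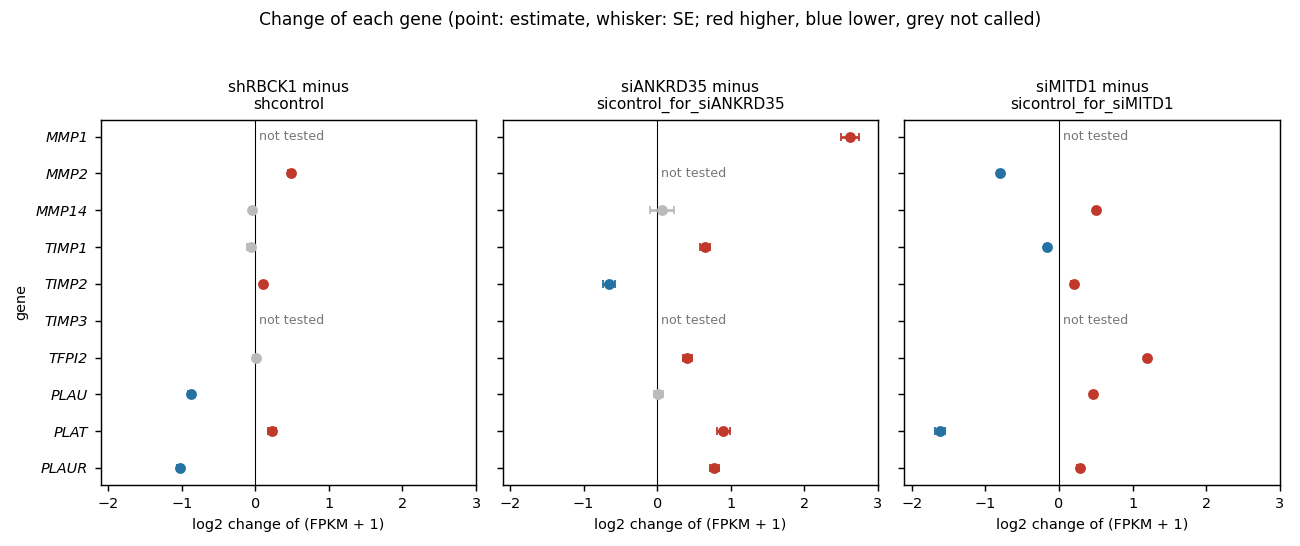
Change of each of the 10 genes on the log2(FPKM + 1) scale (horizontal axis, knockdown minus control) in the 3 comparisons, with a point for the estimate and a whisker for its SE. Red points rose, blue points fell and grey points were not called. PLAU (−0.88) and PLAUR (−1.03) lie on the left in shRBCK1, MMP1 (2.62) lies far right in siANKRD35, and TFPI2 (1.20) and PLAT (−1.62) lie at opposite ends in siMITD1.

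Counted together, 5 of the 8 members tested were called in shRBCK1, 3 higher (MMP2, TIMP2, PLAT) and 2 lower (PLAU, PLAUR), where 49.1% of all genes tested were called, 24.1% higher and 24.9% lower, and 59% had groups that did not overlap. In siANKRD35, 6 of 8 were called, 5 higher (MMP1, TIMP1, TFPI2, PLAT, PLAUR) and 1 lower (TIMP2), where 36.3% of all genes were called, 19.4% higher and 16.9% lower, and 52.2% had groups that did not overlap. In siMITD1, 8 of 8 were called, 5 higher (MMP14, TIMP2, TFPI2, PLAU, PLAUR) and 3 lower (MMP2, TIMP1, PLAT), where 65.6% of all genes were called, 30% higher and 35.6% lower, and 70.4% had groups that did not overlap. These counts are given beside the background shares, and nothing particular to the 10 genes is drawn from them. The median change of the tested members was −0.02 in shRBCK1, 0.53 in siANKRD35 and 0.24 in siMITD1, beside 0.01, 0.03 and −0.03 over all genes, and the first turned to 0.11 under quantile normalization. The siANKRD35 median was 0.27 under quantile normalization and with the length and GC correction. Of the 8 in siMITD1, PLAT had to differ, as said above. TIMP2 and PLAT were called in all 3 comparisons, each with both directions, and PLAUR was called in all 3, lower in shRBCK1 and higher in siANKRD35 and siMITD1. In the ANKRD35 comparison the change ran with gene length (Spearman's rho −0.42 across all genes, which are not independent replicates, against 0.03 in the RBCK1 and 0.09 in the MITD1 comparison), and the called members with higher values there included the short genes MMP1 (1970 bases) and TIMP1 (1541 bases) as well as PLAT (6618 bases). Under the length and GC correction MMP1 stood at 2.36 and PLAT at 1.02, TIMP1 was at 0.35, TFPI2 lost its call at 0.18 and PLAU was at −0.14.

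Within libraries, the order of levels differed between the tables. TFPI2 and MMP14 led in shRBCK1 and shcontrol, with libraries that overlapped, and TIMP1 came next. PLAU led in siANKRD35 and sicontrol_for_siANKRD35 with TFPI2 next and apart from it. TFPI2 led in siMITD1, ahead of MMP14 and TIMP1, whereas MMP2 led in sicontrol_for_siMITD1, ahead of TIMP1 and MMP14. The summed FPKM of the 10 genes was 744 ± 15.8 in shRBCK1 and 796 ± 15.4 in shcontrol, 1112 ± 13.1 in siANKRD35 and 893 ± 14.5 in sicontrol_for_siANKRD35, and 671 ± 7.01 in siMITD1 and 568 ± 1.6 in sicontrol_for_siMITD1. PLAU made up 36.4% of that sum in siANKRD35 and 44.9% in sicontrol_for_siANKRD35, against 7.26% to 12.6% in the other groups. MMP2 made up 12% in siMITD1 and 25% in sicontrol_for_siMITD1, and TFPI2 28.1% and 14.4%.

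**Figure D3:**
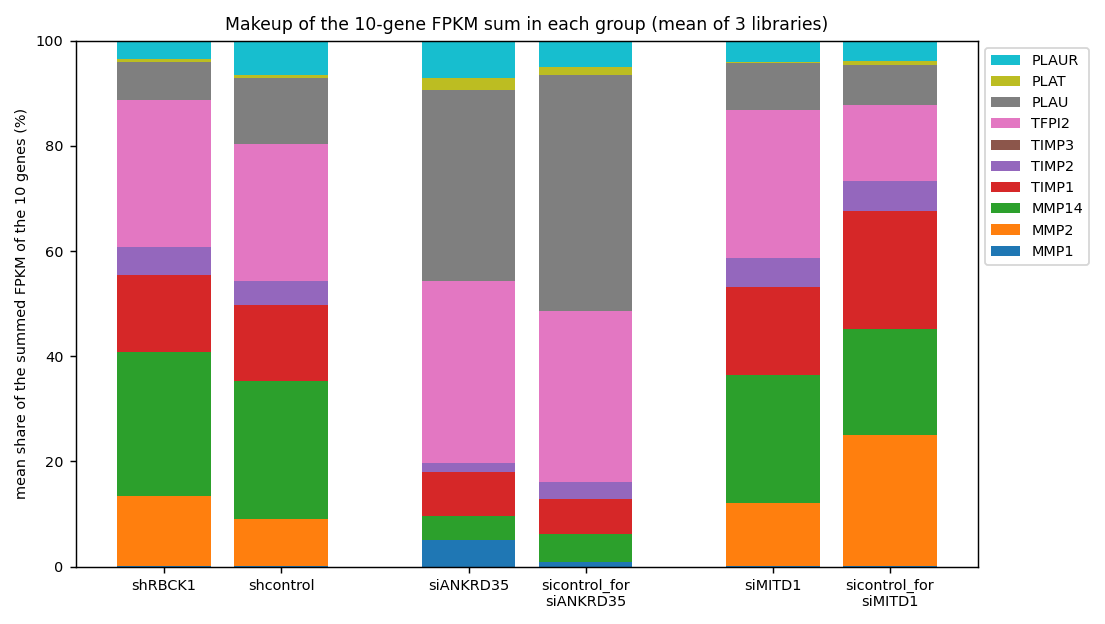
Mean share of each gene in the summed FPKM of the 10 genes (vertical axis, percent, stacked to 100) for the 6 groups, each knockdown left of its control, over 3 libraries per group. PLAU and TFPI2 fill most of the bars of the ANKRD35 table, where PLAU holds 36.4% in siANKRD35 and 44.9% in sicontrol_for_siANKRD35, and the MMP2 segment is 12% in siMITD1 and 25% in sicontrol_for_siMITD1.

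The summed FPKM of MMP1, MMP2 and MMP14 divided by that of TIMP1, TIMP2 and TIMP3 is given as a description of RNA levels and says nothing of active enzyme. It was 2.03 ± 0.0726 in shRBCK1 and 1.86 ± 0.0253 in shcontrol. It was 0.943 ± 0.00778 in siANKRD35 and 0.628 ± 0.0246 in sicontrol_for_siANKRD35, where MMP2 had no reads. It was 1.62 ± 0.0349 in siMITD1 and 1.61 ± 0.0378 in sicontrol_for_siMITD1, where the lower MMP2 and the higher MMP14 nearly balanced in the protease sum (244 ± 4.37 and 257 ± 1.92 FPKM).

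Other genes of the pathway were read from 6 lists of 124 genes in all. The list named for the plasminogen system also holds the coagulation and protein C genes F3, TFPI, THBD and PROCR. Its counts and medians are therefore not of plasminogen activation alone. In shRBCK1 11 of the 69 genes tested were higher and 33 lower (17 and 31 under quantile normalization, 16 and 32 with the length and GC correction, 20 and 31 under voom), in siANKRD35 13 of 69 were higher and 26 lower, and in siMITD1 32 of 70 were higher and 20 lower, beside the background shares given above. In siANKRD35 the split was 10 higher and 29 lower under quantile normalization, 17 and 33 with the length and GC correction, and 11 and 28 under voom. The median changes of the listed genes were −0.13, −0.14 and 0.08 in shRBCK1, siANKRD35 and siMITD1. Quantile normalization, the length and GC correction and voom on recovered reads left the sign of each as it was. In siMITD1 the medians of the lists ran from −0.26 for the other MMPs to 0.26 for the plasminogen system list. That of the other MMPs was −0.09 with the length and GC correction and −0.38 under voom.

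In shRBCK1, 7 of 12 tested genes of the plasminogen system list were lower and 1 higher (median −0.15). F3 and PROCR were among the 7, while THBD and TFPI were not called. The split was 6 lower and 2 higher under quantile normalization (median −0.09) and with the length and GC correction (−0.12), and 5 lower and 3 higher under voom (−0.10). Of 15 AP-1 and ETS factors tested, 10 were lower and 2 higher (median −0.55). ATF3, a stress-induced AP-1 family factor, averaged 1.82 ± 0.271 FPKM in shRBCK1 and 28.4 ± 0.324 FPKM in shcontrol (log2 change −3.39, limma adjusted p = 3.53e-08). MAFF, a small MAF protein, averaged 3.09 ± 0.235 FPKM in shRBCK1 and 10.4 ± 0.519 FPKM in shcontrol, while the ETS factor ETV1 was higher, at 3.64 ± 0.274 FPKM against 1.5 ± 0.142 FPKM in shcontrol. Of the other MMPs tested, 3 of 5 were called lower, 1 of which, MMP13 (0.269 FPKM in shRBCK1, 1.26 FPKM in shcontrol, named after its values were seen), passed the filter through its controls alone and had to differ, and MMP16, another membrane-type MMP, rose (4.22 ± 0.131 FPKM in shRBCK1, 1.96 ± 0.106 FPKM in shcontrol). Of 15 ADAM and ADAMTS proteases 7 fell and 3 rose, where 1 of the 7, ADAMTS6, also passed through the controls alone, and of 8 MMP inhibitors and partners 1 fell and 0 rose, though 2 or 3 of these rose under the other scalings. Of 14 other pericellular proteases and inhibitors 4 rose and 5 fell, with the largest increase in the secreted serine protease HTRA1 (54.9 ± 2.24 FPKM in shRBCK1, 32.7 ± 1.02 FPKM in shcontrol).

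In siANKRD35, 5 of 11 tested genes of the plasminogen system list were higher and 1 was lower. PROCR and THBD were among the 5, while F3 and TFPI were not called. The median of the list was 0.19, and −0.02 under quantile normalization. The split was 6 higher and 3 lower with the length and GC correction, and 4 higher and 2 lower under quantile normalization and under voom. PROCR, the endothelial protein C receptor, measured 123, 123 and 119 FPKM in siANKRD35, against 52.4, 56.8 and 56.4 FPKM in sicontrol_for_siANKRD35. THBD, the thrombomodulin with which it activates protein C, averaged 18.7 ± 1.2 FPKM in siANKRD35 and 8.77 ± 0.387 FPKM in sicontrol_for_siANKRD35. Both rose (log2 change 1.13, limma adjusted p = 0.00034, and 1.01, limma adjusted p = 0.000621). Both are also known from endothelium. The endothelial marker EGFL7 was called higher in siANKRD35 too (log2 change 0.72, limma adjusted p = 0.0498), but its groups overlapped. Its means were 41.4 ± 12.8 FPKM in siANKRD35 and 24 ± 3.53 FPKM in sicontrol_for_siANKRD35. The other endothelial markers PECAM1, VWF, CDH5, KDR and TEK stayed at or under 0.108 FPKM in both groups. The part of EGFL7 was not tested. Of 17 AP-1 and ETS factors 7 fell and 0 rose, among them FOSB, which passed through the controls alone, with ATF3 at 70.4 ± 6.19 FPKM in siANKRD35 and 252 ± 2.24 FPKM in sicontrol_for_siANKRD35, and FOS at 1.42 ± 0.0702 and 4.62 ± 0.588 FPKM. Under quantile normalization and with the length and GC correction, 10 of the AP-1 and ETS factors fell and 0 rose. Of 14 ADAM and ADAMTS proteases 9 were called lower and 1 higher, and 9 lower and 3 higher with the length and GC correction. The 1 higher in the main test, ADAMTS18, passed the filter through siANKRD35 alone. ADAMTS5, among the 9 lower there, passed through the controls alone, so both had to differ. Of 7 MMP inhibitors and partners 3 fell and 1 rose. Of the 4 other MMPs tested, 2 rose and 2 fell. The stromelysin MMP10, which can activate procollagenases, averaged 1.55 ± 0.184 FPKM in siANKRD35 and 0.511 ± 0.0595 FPKM in sicontrol_for_siANKRD35 and passed the filter through siANKRD35 alone. The membrane-type MMP15 fell (3.7 ± 0.284 FPKM in siANKRD35, 7.45 ± 0.106 FPKM in sicontrol_for_siANKRD35). Of 16 other pericellular proteases and inhibitors 4 rose and 4 fell.

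In siMITD1, 8 of 12 tested genes of the plasminogen system list were higher and 2 lower (median 0.26). F3, TFPI and THBD were among the 8, while PROCR was not called. F3, the tissue factor that starts coagulation, averaged 18.8 ± 0.402 FPKM in siMITD1 and 7.77 ± 0.575 FPKM in sicontrol_for_siMITD1. Of 14 AP-1 and ETS factors 6 rose and 5 fell, with ATF3 at 7.1 ± 0.583 and 2.82 ± 0.0954 FPKM and the FOS-family factor FOSL1 at 65.9 ± 2.7 FPKM in siMITD1 and 131 ± 5.21 FPKM in sicontrol_for_siMITD1. Of 13 ADAM and ADAMTS proteases 9 rose and 1 fell, and of 8 MMP inhibitors and partners 3 rose and 2 fell. Of 8 other MMPs 2 rose and 3 fell, among them MMP17 (0.347 ± 0.0664 FPKM in siMITD1, 1.87 ± 0.293 FPKM in sicontrol_for_siMITD1), which passed the filter through its controls alone, as did MMP19. Of 15 other pericellular proteases and inhibitors 4 rose and 7 fell, and the collagen chaperone SERPINH1 fell most (72 ± 3.13 FPKM in siMITD1, 167 ± 2.11 FPKM in sicontrol_for_siMITD1).

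**Figure D4:**
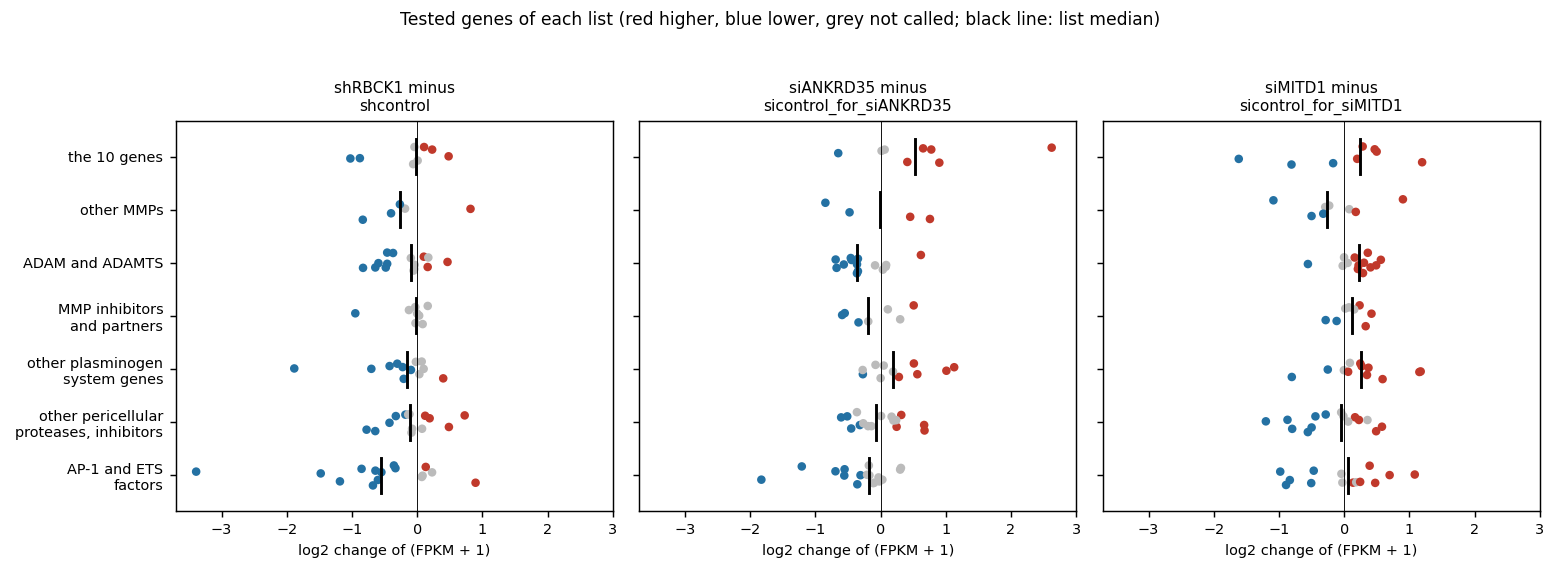
Change of each tested gene on the log2(FPKM + 1) scale (horizontal axis, knockdown minus control) for the 10 genes and the 6 lists, in the 3 comparisons, with a black line for each list's median. Red rose, blue fell and grey was not called. The AP-1 and ETS median is −0.55 in shRBCK1, the ADAM and ADAMTS median is −0.36 in siANKRD35 and 0.22 in siMITD1, and ATF3 is the leftmost point in shRBCK1 at −3.39.

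Likeness to PLAU, TFPI2 and MMP14, the most abundant member of each role, was measured as Pearson's r over 18 library deviations from the mean of the controls of the same table, among 6822 genes with a mean of at least 5 FPKM. These points fall into knockdown clusters of 3 that share libraries and scaling, so r is a description of the ordering of the 3 knockdowns. PLAU was like EDN1, the endothelin-1 gene (r = 0.990), which changed by −1.66, −0.08 and 0.93 in shRBCK1, siANKRD35 and siMITD1. TFPI2 was most like AKAP12, a kinase scaffold gene (r = 0.992), at −0.15, 0.49 and 1.57, and like PIR (r = 0.989), at −0.03, 0.38 and 0.87. MMP14 was most like the metalloprotease gene ADAM15 (r = 0.978), at −0.06, 0.08 and 0.49, and like the transcription factor gene TCF3 (r = 0.971), at 0.01, 0.13 and 0.81.

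Reads of genes that overlap the members cannot be told apart where the counting strand is not stated. The opposite-strand genes C10orf55, overlapping PLAU, and GNGT1, overlapping TFPI2, did not exceed 1.41 and 1.11 FPKM. WTAPP1, opposite MMP1, did not exceed 0.419 FPKM. On the same strand, RN7SL368P overlapped PLAUR, CEP295NL overlapped TIMP2 and AC007336.3 overlapped MMP2. In the tables that list them, these did not exceed 1.07, 0.279 and 0.0274 FPKM in that order.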

How the data were processed

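RNA-seq of 18 libraries of 786-O cells was read from 3 deposited tables, whose values are FPKM that the authors computed per the file headers. For the aligner, the counter and its strand setting, nothing is stated in the labels. Per the submitters' processing notes the build is mm10, while the gene IDs are human, and 58724 of 58735 IDs had equal coordinates in GENCODE 29 (GRCh38), which are used here. Of the ANKRD35 columns, 6 matched no sample and were not used. Grouping followed the sample labels. The members and lists were chosen with earlier results of these data known.

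Each table was fitted alone with limma 3.58.1 (trend, R 4.3.3) on log2(FPKM + 1) for genes that reached 1 FPKM in 3 or more of 6 libraries, two-sided, with Benjamini-Hochberg adjustment over all genes tested. Genes under the filter were compared with an exact permutation test (Python 3.11.15). Whole reads were recovered from FPKM times gene length at a tolerance of 0.01 read. All rows came out whole in the RBCK1 and ANKRD35 tables, and 95.1% of rows with a length in the MITD1 table, where TFPI2 did not. Lengths there were taken by symbol from the RBCK1 table. Beside the 10 members and the 3 knocked-down genes, the text names the list genes with the 3 largest increases and 3 largest decreases that were called without overlap, and the 2 genes most like the most abundant member of each role, except for 1 gene that is not reported here. The fit was run on simulated reads with the same fixed spread in every table. The wider spread among the siANKRD35 libraries was not simulated, so that run cannot tell how the fit does there. Alternatives were quantile normalization, a pseudocount of 0.1, no filter, a filter at 5 FPKM, a loess correction for length and GC content, voom on recovered reads, a replicate block and leaving out each library.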

Additional observations from a re-analysis of the deposited data

How the results depend on the processing

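Under 13 alternatives, 286 of 309 member values kept their direction and side of the threshold, 7 lost the call, 2 gained it and 14 changed sign, and 16 of 24 tested member results held under every alternative. All 14 sign changes were in results not called in the main test, and 1 was called after it: PLAU in siANKRD35, at −0.36 under quantile normalization, with −0.14 under the length and GC correction and −0.074 under voom. MMP14 was at −0.18 and −0.025 in siANKRD35 under quantile normalization and voom, and in shRBCK1 at 0.085, 0.043 and 0.019 under quantile normalization, the correction and voom. TIMP1 in shRBCK1 was at 0.016 under quantile normalization and 0.017 under the correction, and MITD1 RNA in shRBCK1 at 0.016 under voom. Leaving out 1 library gave TFPI2 in shRBCK1 −0.017 to 0.036, MMP14 in siANKRD35 −0.072 to 0.26 and PLAU in siANKRD35 −0.001 to 0.023. The causes were not tested. Leaving out 1 library at a time moved the genes called in the ANKRD35 comparison (4312) between 2267 and 6536, the highest without siANKRD35 replicate 2, while 6 to 7 members were called. The other values were 4148 without siANKRD35 replicate 1, 2825 without siANKRD35 replicate 3 and 2324, 2267 and 2358 without control replicates 1, 2 and 3. Over the tested genes, siANKRD35 replicate 2 correlated with replicates 1 and 3 at r = 0.97 and 0.979. Replicates 1 and 3 of siANKRD35 correlated at 0.99, and pairs within the other groups at 0.992 to 0.996. Voom on recovered reads, chosen after seeing the data, called 4191 genes higher and 2673 lower in shRBCK1 (2951 and 3049 with limma-trend) and 1747 and 2724 in siANKRD35 (2305 and 2007), where a filter at 5 FPKM gave 2044 and 1164. Same-numbered libraries showed no clear tendency to deviate together (r from −0.087 to 0.179, against −0.225 to 0.14 for libraries of unlike number). With 3 libraries a side these values cannot settle whether the numbers pair them. With the replicate block 5347, 4139 and 6859 genes were called in the RBCK1, ANKRD35 and MITD1 comparisons, and TIMP2 in shRBCK1 lost its call (adjusted p = 0.0627). The planned count tools were not run, since the deposited unit is FPKM. Depth limits MMP1 outside the ANKRD35 table and TIMP3 in all tables.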
